A study of Mus musculus with 4 samples.

Results

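The genes described are the subunits of the transcription factor NF-κB (Nfkb1, Nfkb2, Rela, Relb and Rel), the IκB-type proteins Nfkbia, Nfkbib, Nfkbiz and Bcl3, and Tnfaip3. These 10 genes were chosen by name in a table of 56953 genes, by a proposal made when the NEDD8i and DMSO values of the same libraries were already known. Their differences between the groups are therefore given as a description, with standard errors and without p-values. All 10 were found and all 10 were among the 11388 genes that passed the filter on low counts. RNA came from dorsal skin of C57BL/6J animals of wild type genotype that had been treated on the skin surface for 3 days. There were 2 libraries from skin given NEDD8i at 10 µM and 2 from skin given DMSO, and all 4 share strain and genotype. The agent is named only as NEDD8i, after NEDD8, a small protein related to ubiquitin. The labels do not say whether the replicates were separate mice. The p-values of other genes therefore rest on the spread between these libraries, which may be technical.

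NF-κB is a family of dimeric transcription factors held in the cytoplasm by IκB proteins until a kinase complex, IKK, marks the inhibitor for destruction. A cullin-RING ubiquitin ligase built on Cul1 with the adaptor βTrCP then tags IκB for the proteasome, and that ligase is switched on when NEDD8 is attached to its cullin. In the epidermis the pathway links TNF, IL-1 and microbial signals to cytokine and antimicrobial genes. Several of its regulators, among them Nfkbia and Tnfaip3, are themselves well-known NF-κB targets.

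The libraries read the 3′ ends of transcripts. Total counts were 8856572 and 8833217 in the NEDD8i libraries and 5955627 and 5639791 in the DMSO libraries, of which ribosomal RNA genes took 52.6% to 61.7%. Levels are given in CPM, counts scaled to library size after TMM, a normalisation between libraries. In these units 3 counts, taken as the floor, equal 0.360 CPM in the deepest and 0.543 CPM in the shallowest library by scaled size, which covers counting error only. Across all tested genes, 76 (0.667%) were higher and 13 (0.114%) lower after NEDD8i at an adjusted p under 0.05 in edgeR's quasi-likelihood test, with p-values adjusted by Benjamini-Hochberg. Leaving out a NEDD8i library turned that total of 89 into 44 (replicate 1) or 46 (replicate 2), and leaving out a DMSO library turned it into 1285 (replicate 1) or 1358 (replicate 2). Hair genes stood apart by library. The 10 hair shaft and root sheath markers in the table summed to 15.4 and 392.2 CPM in NEDD8i replicates 1 and 2, and to 5968 and 18.5 CPM in DMSO replicates 1 and 2, and 0 of the 10 passed the threshold. Keratinocyte markers were abundant in every library, whereas the 6 endothelial markers summed to 5 and 20 reads after NEDD8i and to 7 and 2 reads in DMSO, with Cdh5 at 0 throughout. The 7 fibroblast markers summed to 36.5 and 72.9 CPM after NEDD8i and to 55.7 and 7.06 CPM in DMSO, with 1 of 5 tested, Dpt, past the threshold as higher and 4 higher at an unadjusted p under 0.05. The 5 mast cell markers had 30 and 9 reads after NEDD8i and 21 and 8 in DMSO. The labels name whole-thickness skin as the tissue.

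Promoter windows for 7 of the 10 genes were found in RefSeq, build GRCm38.p6, each with 250 bases before and 50 after a transcript start. They were searched on both strands for the NF-κB consensus, a motif of 10 bases. Nfkb1, Relb and Nfkbiz had no entry. Windows of Bcl3, Tnfaip3, Nfkbia, Nfkb2 and Rel held it, and those of Rela and Nfkbib did not. By window the count was 7 of 10, because Nfkb2 has 3 listed starts, all with a match, and Tnfaip3 has 2, of which the upstream one matched. The downstream pair of Nfkb2 windows overlap, and the only match in the last of them is also a match of the window before it, so 1 site is counted in 2 windows. The background was 8.46% of 32851 windows of the same length in the whole table. The windows of the 3 regulators with a match and of the most upstream start of Nfkb2 are shown. They set genes with higher values after NEDD8i beside a subunit gene whose groups overlapped. Not shown are Rela and Nfkbib, also higher but without a match, and Rel, with a match and overlapping groups. A link between match and level was not tested. Matches are in capitals, in the direction of the gene's transcription, and overlapping matches run together. The start listed for Bcl3 lies inside the outer end of the RefSeq gene.
Bcl3, chr7:19822706-19823005, minus strand: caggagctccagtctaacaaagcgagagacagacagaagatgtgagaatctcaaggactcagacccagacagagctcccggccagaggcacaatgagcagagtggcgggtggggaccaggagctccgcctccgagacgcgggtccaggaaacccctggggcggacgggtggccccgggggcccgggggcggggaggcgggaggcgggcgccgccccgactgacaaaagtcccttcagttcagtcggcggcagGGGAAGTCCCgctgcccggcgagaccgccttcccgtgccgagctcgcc
Tnfaip3, chr10:19015361-19015660, minus strand: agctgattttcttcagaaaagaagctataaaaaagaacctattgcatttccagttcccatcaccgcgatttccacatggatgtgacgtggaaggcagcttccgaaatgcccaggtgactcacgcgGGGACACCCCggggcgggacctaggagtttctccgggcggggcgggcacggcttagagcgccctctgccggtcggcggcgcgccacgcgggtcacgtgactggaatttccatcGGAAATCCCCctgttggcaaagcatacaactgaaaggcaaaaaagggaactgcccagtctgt
Nfkbia, chr12:55492598-55492897, minus strand: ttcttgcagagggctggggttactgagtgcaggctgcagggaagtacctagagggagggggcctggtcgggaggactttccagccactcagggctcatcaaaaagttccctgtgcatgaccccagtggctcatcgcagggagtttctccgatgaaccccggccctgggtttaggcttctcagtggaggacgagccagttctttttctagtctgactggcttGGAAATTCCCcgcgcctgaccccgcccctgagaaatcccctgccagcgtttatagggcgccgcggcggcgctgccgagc
Nfkb2, chr19:46304487-46304786, plus strand: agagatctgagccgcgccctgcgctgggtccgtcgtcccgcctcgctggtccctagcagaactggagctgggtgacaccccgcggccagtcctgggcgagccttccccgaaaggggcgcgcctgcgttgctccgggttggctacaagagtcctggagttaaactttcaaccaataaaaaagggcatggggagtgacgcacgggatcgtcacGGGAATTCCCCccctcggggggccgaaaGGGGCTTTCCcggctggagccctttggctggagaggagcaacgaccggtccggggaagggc

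Counting from 1 at the first base of the listed transcript start, with negative positions before it, the Bcl3 match GGGAAGTCCC lies at positions 3 to 12. In Tnfaip3 the matches lie at -125 to -116 and at -12 to -3. The single Nfkbia match lies at -29 to -20 and reads GGGAATTTCC on the strand opposite to the gene. In Nfkb2 a pair of overlapping matches spans -39 to -29 and a separate one, GGGGCTTTCC, lies at -11 to -2. A match of letters is a description of the sequence and not a measured binding site.

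Bcl3 encodes an atypical nuclear IκB protein that binds homodimers of the p50 and p52 subunits and can activate or repress their target genes. It lies on chromosome 7, 19542387 to 19556695, minus strand (ENSMUSG00000053175.18), in the deposited table's coordinates, which are taken to be GRCm39. Its counts were 774 and 676 in the NEDD8i libraries, against 78 and 82 in the DMSO libraries. Both NEDD8i libraries were far above both DMSO libraries, and the gap between replicates was small in each group. The level averaged 88.7 ± 10.5 CPM after NEDD8i and 13.0 ± 2.62 CPM in DMSO (SD, n = 2 each), which gives 2.77 (SE 0.31) as the log2 fold change. No other of the 10 genes differed as much. In bulk skin a change in the number of cells of a type and a change in RNA per cell cannot be told apart, for this gene or the others. Bcl3 was also the only one of them past the threshold over all genes (1 higher, 0 lower, 9 not past, beside the 0.667% and 0.114% of all tested genes). Over the 11 alternative settings its log2 fold change ran from 2.56 without DMSO replicate 1 to 3.01 without DMSO replicate 2. These settings reuse the libraries on which the list was proposed, so the range is a description only.

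Tnfaip3 encodes A20, a ubiquitin-editing enzyme that ends NF-κB signalling downstream of TNF and Toll-like receptors. It lies on chromosome 10, 18876658 to 18891158, minus strand. Its counts were 204 and 321 after NEDD8i and 76 and 47 in DMSO. The groups did not overlap, at 25.3 and 38.6 CPM after NEDD8i against 10.9 and 8.51 CPM in DMSO. On the log2 scale the fold change was 1.72 (SE 0.35), which did not pass the threshold over all genes. It did pass with DESeq2, a second count test, with no filter, and with the replicate number or a crossed pairing as a block. In those settings 392, 703, 285 and 483 genes passed in all, against 89 in the main fit. With 1 library left out, its log2 fold change ran from 1.37 (NEDD8i replicate 2) to 2.01 (NEDD8i replicate 1).

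Among the IκB genes, Nfkbia had by far the most reads. It encodes IκBα, the inhibitor that is degraded and then remade within one round of signalling, and lies on chromosome 12, 55536195 to 55539432, minus strand. Its counts were 20075 and 31408 after NEDD8i and 15838 and 10977 in DMSO. In CPM the levels were 2493 and 3773 after NEDD8i against 2264 and 1988 in DMSO, so the groups did not overlap, but NEDD8i replicate 1 stood close to DMSO replicate 1. The log2 fold change was 0.56 (SE 0.36), and without NEDD8i replicate 2 it was 0.22.

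Nfkbib encodes IκBβ, a slower-acting inhibitor of the same kind (chromosome 7, 28457676 to 28466065, minus strand). It had few reads, 57 and 62 after NEDD8i and 43 and 19 in DMSO, or 7.08 and 7.45 CPM after NEDD8i against 6.15 and 3.44 CPM in DMSO. The NEDD8i libraries agreed closely and lay just above the higher DMSO library, while the DMSO libraries differed 1.79-fold from each other. The log2 fold change was 0.59 (SE 0.45), and leaving out a DMSO library gave 1.06 (replicate 1) or 0.26 (replicate 2).

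Nfkbiz encodes IκBζ, a nuclear co-activator that keratinocytes induce downstream of IL-17 and IL-36 receptors (chromosome 16, 55631738 to 55659262, minus strand). Counts were 721 and 1458 after NEDD8i and 507 and 519 in DMSO, which is 89.5 and 175.2 CPM after NEDD8i against 72.5 and 94.0 CPM in DMSO. The groups overlapped, because NEDD8i replicate 1 lay between the DMSO libraries and only NEDD8i replicate 2 stood above them. The log2 fold change of 0.67 (SE 0.37) became 0.09 on leaving out NEDD8i replicate 2 and 1.09 on leaving out NEDD8i replicate 1.

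**Figure D1:**
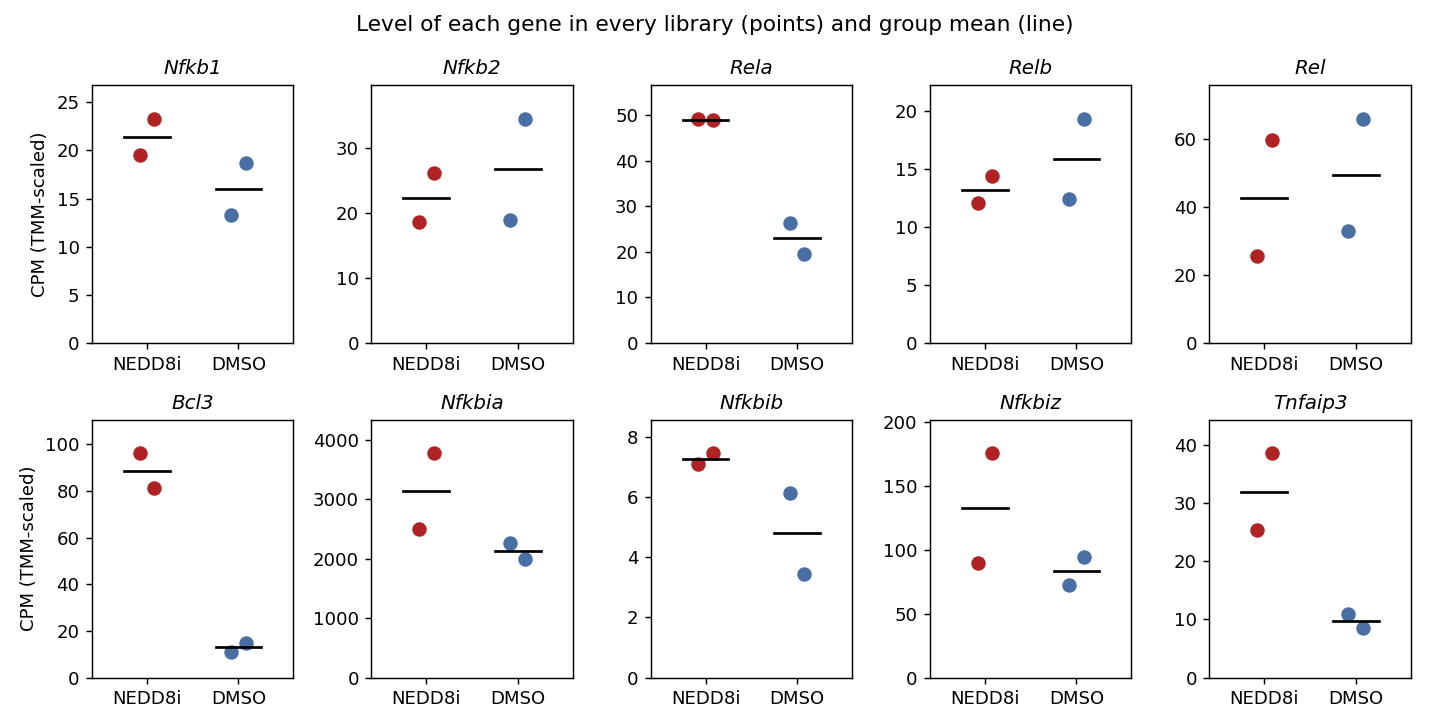
Level of the 10 genes in CPM scaled by TMM (vertical axes, each starting at 0) in the 2 NEDD8i libraries (red) and the 2 DMSO libraries (blue), with lines at group means. Bcl3, Tnfaip3 and Rela have wide gaps between the groups, whereas Nfkb2, Relb, Rel and Nfkbiz overlap.

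Of the subunits, Rela differed most. It encodes p65, the partner that carries the transactivation domain in the classical dimer, and lies on chromosome 19, 5687511 to 5698158, plus strand. Its counts were 397 and 407 after NEDD8i and 185 and 108 in DMSO. At 49.3 and 48.9 CPM the NEDD8i libraries were nearly equal and lay above the DMSO libraries at 26.4 and 19.6 CPM. Its log2 fold change of 1.09 (SE 0.30) was not past the threshold over all genes. Rela passed it when no filter on low counts was applied, a setting in which 703 genes passed in all, against 89 in the main fit. Without DMSO replicate 1 its log2 fold change was 1.32.

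Nfkb1 encodes p105, the precursor of p50 (chromosome 3, 135290416 to 135397307, minus strand). Its levels were 19.5 and 23.3 CPM after NEDD8i and 13.3 and 18.7 CPM in DMSO, with counts of 157 and 194 after NEDD8i against 93 and 103 in DMSO. The groups did not overlap, yet the lower NEDD8i library and the higher DMSO library were less than 1 CPM apart. Its log2 fold change was 0.42 (SE 0.33), and leaving out a DMSO library gave 0.19 (replicate 1) or 0.71 (replicate 2). A gene model on the same strand, Gm43430, overlaps the span of Nfkb1 and had 70 and 114 counts after NEDD8i and 99 and 39 in DMSO. Whether their exons overlap was not checked, so it is not known if any reads were split or lost in counting.

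Nfkb2 and Relb form the dimer of the non-canonical pathway, Nfkb2 as the precursor p100 that is processed to p52. Nfkb2 lies on chromosome 19, 46292759 to 46300824, plus strand, and Relb on chromosome 7, 19340142 to 19363363, minus strand. Nfkb2 had 18.6 and 26.2 CPM after NEDD8i and 19.0 and 34.6 CPM in DMSO. Relb had 12.0 and 14.4 CPM after NEDD8i and 12.4 and 19.4 CPM in DMSO. In both genes the groups overlapped, with DMSO replicate 2 the highest library. For Nfkb2 the log2 fold change of -0.25 (SE 0.37) turned to 0.26 without that library. For Relb it was -0.26 (SE 0.36) and turned to 0.11 without it. An antisense gene, 4833438C02Rik, overlaps the span of Nfkb2 and had 34 and 49 counts after NEDD8i and 44 and 49 in DMSO. Overlap of their exons was not checked, and the sources used here do not say whether counting used strand. Whether reads of this pair were mixed is therefore not known.

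Rel encodes c-Rel, best known from lymphocytes (chromosome 11, 23686847 to 23720970, minus strand). It had the widest spread within groups, with 25.7 and 59.7 CPM after NEDD8i and 32.9 and 66.1 CPM in DMSO. The libraries of one group thus differed 2.32-fold after NEDD8i and 2.01-fold in DMSO, while the means were 42.7 CPM after NEDD8i and 49.5 CPM in DMSO. The log2 fold change of -0.21 (SE 0.46) became 0.40 when DMSO replicate 2 was left out. Leaving out a NEDD8i library gave 0.29 (replicate 1) or -0.96 (replicate 2). Its sign thus depended on which libraries were kept.

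As a group, 7 of the 10 genes had a positive log2 fold change, and the median was 0.57, against 0.00 (-0.0031) over all tested genes. The 5 regulators were all positive, with a median of 0.67 and a range from 0.56 to 2.77. The 5 subunits had 2 positive values, for Rela and Nfkb1, and a median of -0.21. Both NEDD8i libraries lay above both DMSO libraries in 6 of the 10 genes (Bcl3, Tnfaip3, Rela, Nfkbia, Nfkbib and Nfkb1) and below them in 0. The corresponding shares of all tested genes were 25% and 22.9%. At an unadjusted p under 0.05 there were 3 higher members, Bcl3, Tnfaip3 and Rela, and 0 lower, beside 8.62% and 7.86% of all tested genes. By DESeq2 the adjusted calls were Bcl3 and Tnfaip3, 2 higher and 0 lower, beside 2.17% and 1.57% of the 10483 genes to which it gave an adjusted p. The list was proposed on this contrast, and nothing is read from these counts. The summed subunits stood at 125.2 and 172.5 CPM after NEDD8i and 104.0 and 158.3 CPM in DMSO, ranges that overlap.

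**Figure D2:**
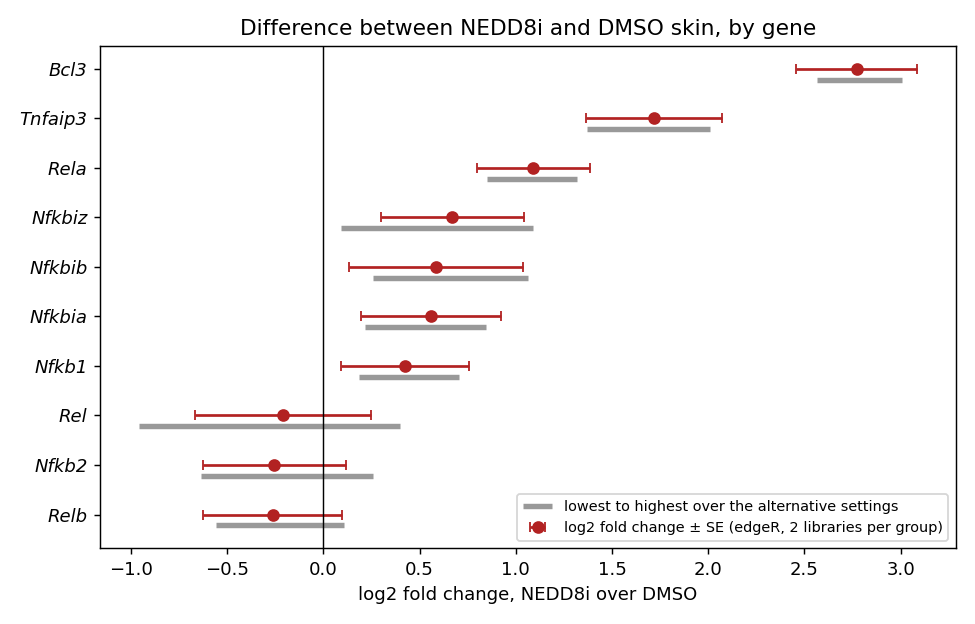
Log2 fold change of each gene, NEDD8i over DMSO (horizontal axis), with its standard error (red, edgeR, 2 libraries per group) and the lowest to highest value over 11 alternative settings (grey). Bcl3 lies at 2.77 and Tnfaip3 at 1.72 with grey ranges wholly above 1, while the ranges of Rel, Nfkb2 and Relb cross 0.

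To compare levels between genes, CPM was divided by the summed exon length in kilobases. Reads from transcript ends do not scale with length, so this division lowers long genes and changes the order. In mean CPM after NEDD8i, Nfkbiz was above Bcl3 (132.3 against 88.7) and Rel above Relb (42.7 against 13.2). In mean CPM in DMSO, Tnfaip3 was above Nfkbib (9.69 against 4.79). The order by CPM per kb is given next. After NEDD8i the highest mean was that of Nfkbia at 1986 CPM per kb, then Bcl3 at 47.9, Nfkbiz at 32.0 and Rela at 18.1 CPM per kb. Below them came Tnfaip3 at 6.95, Relb at 5.98, Rel at 5.72, Nfkb2 at 5.31, Nfkb1 at 5.19 and Nfkbib at 3.41 CPM per kb. Neighbours from Tnfaip3 to Nfkb1 overlapped in their library values, and the others did not. In DMSO the highest mean was that of Nfkbia at 1347 CPM per kb, then Nfkbiz at 20.1 and Rela at 8.47 CPM per kb. Below them came Relb at 7.19, Bcl3 at 7.03, Rel at 6.63, Nfkb2 at 6.35, Nfkb1 at 3.87, Nfkbib at 2.25 and Tnfaip3 at 2.11 CPM per kb. There the neighbours from Rela to Nfkb1 overlapped, as did Nfkbib and Tnfaip3. On this scale Bcl3 had 52.0 and 43.9 CPM per kb after NEDD8i, and Nfkbiz had 21.6 and 42.3 CPM per kb, so that the genes were nearly level in NEDD8i replicate 2. Before division by length Nfkbiz was above Bcl3 in that library, at 175.2 CPM against 81.2 CPM. In DMSO Bcl3 lay below Nfkbiz on either scale. It lay among the subunits only after division by length. In CPM its DMSO mean of 13.0 was below that of every subunit, the lowest of which was Relb at 15.9 CPM.

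Bcl3 and Relb lie in the same region of chromosome 7, with starts 193.3 kb apart and other tested genes between them. Within 300 kb of the Bcl3 start 14 other genes were tested. None of these 14 passed the threshold in edgeR's quasi-likelihood test, and the count was also 0 at an unadjusted p under 0.05 and 0 by DESeq2, which gave 13 of them an adjusted p. Their log2 fold changes ran from -0.31 for Ppp1r37 to 0.96 for Pvr, with 5 positive and 9 negative and a median of -0.08. The nearest tested gene downstream, Cblc, had counts of 69 and 81 after NEDD8i and 43 and 61 in DMSO, a log2 fold change of 0.10 (SE 0.42). The genes named here were chosen after their values were seen.

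**Figure D3:**
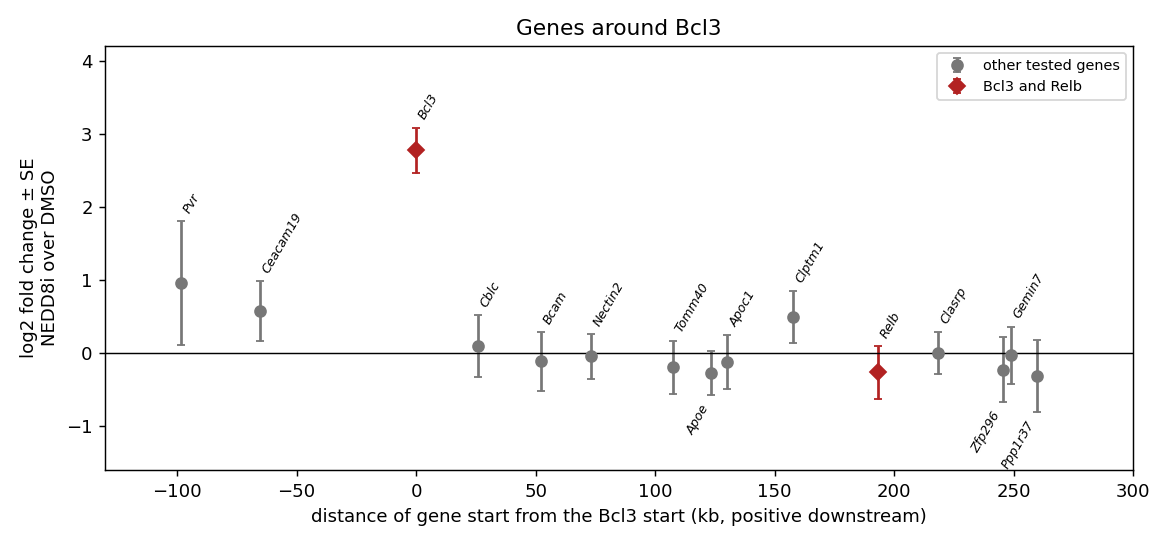
Log2 fold change with standard error (vertical axis, NEDD8i over DMSO) of the tested genes within 300 kb of Bcl3, by the distance of their starts from the Bcl3 start in kb, positive downstream. Bcl3 lies at 2.77 and all 14 others lie between -0.31 and 0.96, Relb among them at -0.26.

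Likeness of pattern was measured as the Euclidean distance between log2 CPM values centred over the 4 libraries. The tested genes nearest to Bcl3, the member with the largest log2 fold change, were Ptgs2 (distance 0.17), Ptpn23 (0.23) and Gfpt2 (0.30). Ptgs2 had counts of 215 and 195 after NEDD8i and 22 and 26 in DMSO. Ptpn23 had 48 and 51 after NEDD8i and 4 and 4 in DMSO, and Gfpt2 had 13 and 12 after NEDD8i and 0 and 0 in DMSO, so both rest on few reads in DMSO. Nearest to Relb, the member with the lowest value, were Auts2 (0.02), Pik3r1 (0.03) and Usp48 (0.05), all with log2 fold changes near that of Relb, from -0.28 to -0.25.

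The other genes of the pathway were taken from lists drawn up with earlier results of these data known. The lists held 153 gene symbols in all, of which 152 were in the table and 110 were tested. Of these, 5 rose, 0 fell and 105 did not pass, beside 0.667% higher and 0.114% lower of all tested genes. The median log2 fold change was 0.21, and 65 values were positive. By DESeq2 13 were higher and 0 lower, beside 2.17% and 1.57%. At an unadjusted p under 0.05 in edgeR's test 27 were higher and 6 lower, beside 8.62% and 7.86%. The same shares stand beside the counts of each list below. The 5 that rose were the IL-1 family cytokine Il33, the prostaglandin synthase Ptgs2, the protease inhibitor Slpi, the calgranulin S100a8 and the beta-defensin Defb14. With only 1 DMSO library kept, the count was 23 on leaving out replicate 1 (18 higher and 5 lower) and 22 on leaving out replicate 2 (21 higher and 1 lower). In the fit lacking NEDD8i replicate 1 it was 4, and Ptgs2, S100a8 and Defb14 no longer passed. With library sizes alone, which lowered the median of all genes by 0.22 on the log2 scale, S100a8 and Defb14 no longer passed.

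IKK phosphorylates the inhibitors and is itself switched on by upstream kinases. Of 15 IKK and upstream kinase genes tested, 0 passed in edgeR's test, 0 had an unadjusted p under 0.05 and 0 passed by DESeq2, and the median log2 fold change was -0.03. Tab2, a subunit of the TAK1 kinase complex, had a log2 fold change of -0.03 (SE 0.30) and Irak1, a kinase of the IL-1 receptor pathway, -0.42 (SE 0.32). Among 15 tested adaptors and ubiquitin ligases 0 passed, 3 were higher at an unadjusted p under 0.05 and 1 by DESeq2, with a median of 0.42. Myd88, the adaptor of Toll-like and IL-1 receptors, had 423 and 547 counts after NEDD8i and 172 and 152 in DMSO, a log2 fold change of 1.18 (SE 0.29, adjusted p = 0.0993 by edgeR), and was the DESeq2 call. Bcl10, a scaffold of the CARD complexes, stood at 0.13 (SE 0.27).

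Upstream of these, 8 of 17 ligand genes were tested and 1 rose, with a median of 0.54. Il33, an alarmin released by damaged epithelium, had 1816 and 1449 counts after NEDD8i and 64 and 92 in DMSO, a log2 fold change of 3.96 (SE 0.40, adjusted p = 0.00574 by edgeR). Of 13 receptors tested 0 passed in edgeR's test, 4 were higher and 1 lower at an unadjusted p under 0.05, and 2 were higher by DESeq2, with a median of -0.01. Tnfrsf1a, the main TNF receptor, had a log2 fold change of 0.92 (SE 0.29) and Il1rl2, the IL-36 receptor, one of 1.35 (SE 0.31, adjusted p = 0.0897 by edgeR).

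Other brakes on the pathway gave no edgeR call. Of 6 further IκB-type regulators 5 were tested and 0 passed, with 1 higher at an unadjusted p under 0.05 and 0 by DESeq2. Nkiras1, a Ras-like protein that slows IκB degradation, had 50 and 62 counts after NEDD8i and 11 and 17 in DMSO, a log2 fold change of 1.57 (SE 0.52, adjusted p = 0.188 by edgeR). Its paralog Nkiras2 stood at 0.26 (SE 0.43), the NF-κB repressing factor gene Nkrf at 1.28 (SE 0.69), Nfkbil1 at -0.61 (SE 0.65) and Nfkbid, a nuclear IκB of lymphocytes, at -0.03 (SE 0.83). Nfkbie, which encodes IκBε, had 11 and 1 counts after NEDD8i and 2 and 5 in DMSO and was too low to test. Among 13 other negative regulators 0 passed, 2 were higher at an unadjusted p under 0.05 and 1 by DESeq2. The autophagy receptor Sqstm1, that DESeq2 call, had a log2 fold change of 1.28 (SE 0.28, adjusted p = 0.0808 by edgeR), and Tax1bp1, a cofactor of A20, had 0.03 (SE 0.34).

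The ligase that tags IκB and the enzymes that attach NEDD8 to it or remove it formed a list of 13 gene symbols, 12 of them in the table. The symbol not found was Skp1a, which was listed beside Skp1. Of 11 tested 10 were positive, with a median of 0.38, while 0 passed in edgeR's test, 3 were higher at an unadjusted p under 0.05 and 0 passed by DESeq2. Nedd8 itself had 1221 and 1004 counts after NEDD8i and 920 and 575 in DMSO, a log2 fold change of 0.21 (SE 0.30), and the cullin adaptor Skp1 stood at 0.07 (SE 0.27).

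In the list of NF-κB target genes, 29 of 47 were tested, 4 rose, 0 fell and 25 did not pass, and the median was 0.00 (-0.00029), with 14 positive and 15 negative values. At an unadjusted p under 0.05, 11 were higher and 4 lower, and by DESeq2 8 were higher and 0 lower. Slpi had 59 and 111 counts after NEDD8i and 0 and 0 in DMSO, and was at least 43.1-fold higher taking 3 counts in the 2 DMSO libraries together as the floor (adjusted p = 0.0162 by edgeR). Ptgs2 had a log2 fold change of 2.68 (SE 0.38, adjusted p = 0.0186 by edgeR) and S100a8 one of 2.28 (SE 0.37, adjusted p = 0.0347 by edgeR). Defb14 had 67 and 37 counts after NEDD8i and 2 and 2 in DMSO, a log2 fold change of 4.24 (SE 0.73, adjusted p = 0.0403 by edgeR). A shorter list of keratinocyte genes linked to IκBζ, which shares most of its genes with the target list, had 3 risers among 11 tested, Slpi, S100a8 and Defb14. Its median was 1.45 and 10 of the 11 were positive.

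**Figure D4:**
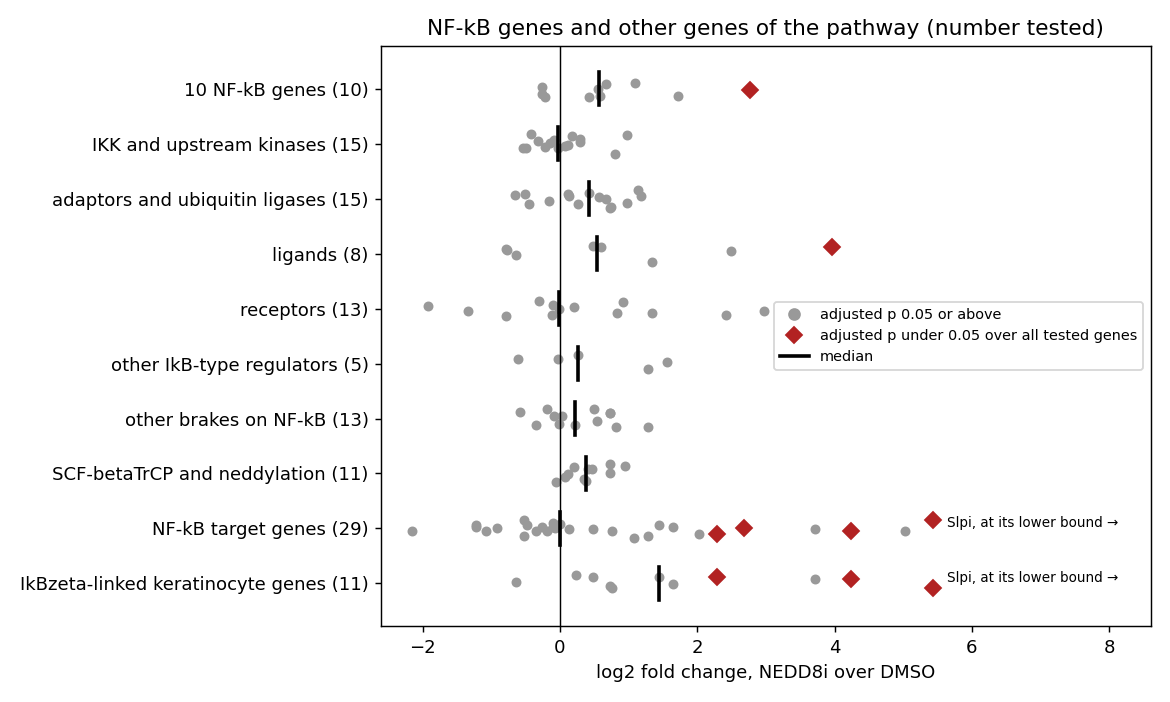
Log2 fold change, NEDD8i over DMSO (horizontal axis), of the 10 genes and of the other pathway genes by list, with the number tested in brackets, medians as bars and genes past the edgeR threshold as red diamonds. Slpi, with 0 counts in DMSO, is drawn at its lower bound of 5.43, and some genes stand in more than 1 list.

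Summed markers of macrophages and of dendritic cells were higher in both NEDD8i libraries than in both DMSO libraries. Macrophage and monocyte markers summed to 202.3 and 172.3 CPM after NEDD8i and 150.4 and 154.7 CPM in DMSO, and Langerhans and dendritic cell markers to 428.2 and 398.4 CPM after NEDD8i against 289.0 and 227.3 CPM in DMSO. In both lists 0 of 7 tested genes passed in edgeR's test and 0 by DESeq2, with 1 macrophage gene and 3 dendritic cell genes higher at an unadjusted p under 0.05. T cell markers summed to 26.9 and 28.2 CPM after NEDD8i and 32.4 and 39.1 CPM in DMSO, with 0 of 6 tested past the threshold, 0 at an unadjusted p under 0.05 and 0 by DESeq2. Of 8 B cell and plasma cell markers 6 were at 0 in all libraries, Cd79a and Ms4a1 among them, and the 8 together had 5 and 0 reads after NEDD8i and 3 and 3 in DMSO. Of 10 neutrophil markers 7 were at 0 in all libraries, including Ly6g, Ltf and Mpo, and the 10 together had 82 and 44 reads after NEDD8i and 11 and 34 in DMSO. Cxcr2 alone gave 75 and 44 of these reads after NEDD8i and 11 and 33 in DMSO. Basal keratinocyte markers summed to 5130 and 4431 CPM after NEDD8i and 3030 and 5754 CPM in DMSO, and suprabasal markers to 3874 and 3386 CPM after NEDD8i against 4293 and 7678 CPM in DMSO, with Lor and Flg2, of 8 genes, past the threshold as lower. The part of these cells in the values of the 10 genes was not tested.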

How the data were processed

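RNA from 4 skin samples, 2 NEDD8i and 2 DMSO, was made into 3′ end libraries with the QuantSeq FWD kit, per the labels' protocols. What the authors deposited is 1 table of raw counts for each gene, with exon coordinates and lengths, per the file headers. STAR, featureCounts and DESeq2, with GRCm38 and GRCm39, are named in the submitters' processing notes; versions and settings are not given in the sources used here. The starts of the 10 members differed from their RefSeq GRCm38 starts by at least 8235 bases, so the table's coordinates are taken to be GRCm39. Every column was matched to 1 sample by name and 0 were left unused. Replicates of a group were not copies of one library: chi-square over degrees of freedom was 24.1 for NEDD8i and 34.5 for DMSO.

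The counts were tested in R 4.3.3 with edgeR 4.0.16 (TMM, filterByExpr with minimum count 10 and minimum total 15, robust quasi-likelihood F test, group as the only term). P-values were adjusted by Benjamini-Hochberg over 11388 genes, with a threshold of 0.05. The common dispersion was 0.12; the SE of a log2 fold change is its size divided by the square root of F, with a median of 0.42. CPM used TMM-scaled library sizes and log2 CPM a prior count of 2. The steps were tested on simulated data. Alternatives were DESeq2 1.42.0, RLE factors, library sizes alone, no filter, the table without 3 ribosomal RNA genes, a replicate block and each library left out; a crossed block was added after seeing the data.

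The members, lists, rules and tests were chosen with earlier results of these data known. Named genes were all members and other IκB-type regulators, and from each other list up to 4 genes past the threshold by smallest p or, with none past it, the 2 most abundant. Pattern likeness took the 3 nearest genes to the members with the largest and smallest log2 fold change. Neighbours of Bcl3 and called cell type markers were chosen for naming after their values were seen.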

Additional observations from a re-analysis of the deposited data

How the results depend on the processing

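The count of all genes past the threshold was 89. It was 81 with RLE factors and 77 without the 3 ribosomal RNA genes, but 47 with library sizes alone, 392 with DESeq2, 703 with no filter and 44 to 1358 when 1 library was left out. Of the 10 members 1 passed, and 2 with DESeq2, 3 with no filter and 1 to 3 when 1 library was left out. The 5 pathway genes became 3 with library sizes alone, 13 with DESeq2, 18 with no filter and 4 to 23 when 1 library was left out. A fit without 1 library takes the lone sample of its group to vary like the other group. With the replicate number as a block (replicate block) the counts were 285, 2 and 12 for all genes, members and pathway genes. The labels give no pairing, and the replicate differences of the 2 groups correlated at -0.13 across genes; a crossed pairing, added after seeing the data, gave 483, 2 and 11. The causes were not tested. Log2 fold changes of the members changed sign only for Nfkb2, Relb and Rel, each when 1 library was left out. With 2 libraries per group, the smallest change past the threshold was 1.67 on the log2 scale. Size alone did not decide a call, since Tnfaip3 at 1.72 was not called. With no filter Rela passed at 1.12.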

Other observations

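Some pathway genes outside the naming rule were singled out after their values were seen. The urokinase gene Plau had 240 and 421 counts after NEDD8i and 58 and 63 in DMSO, a log2 fold change of 2.03 (SE 0.37). The hyaluronan receptor Cd44 had 2577 and 2027 counts after NEDD8i and 923 and 550 in DMSO (log2 fold change 1.28, SE 0.32), and the chemokine Cxcl2 had 380 and 266 counts after NEDD8i against 100 and 60 in DMSO (log2 fold change 1.65, SE 0.34). The TWEAK receptor Tnfrsf12a had 332 and 215 counts after NEDD8i and 67 and 15 in DMSO (log2 fold change 2.42, SE 0.54). These 4 passed with DESeq2 and not in edgeR's quasi-likelihood test over all genes. Lower values were found in the same target list for the 4 genes with an unadjusted p under 0.05 in that direction, none of which passed after adjustment. The gelatinase Mmp9 had 10 and 5 counts after NEDD8i and 41 and 13 in DMSO (log2 fold change -2.15, SE 0.73), and the peptide transporter Tap1 had 348 and 436 counts after NEDD8i and 443 and 879 in DMSO (log2 fold change -1.22, SE 0.42). The survival gene Bcl2 had 50 and 61 counts after NEDD8i and 99 and 80 in DMSO (log2 fold change -1.08, SE 0.36). The interferon regulatory factor Irf1 had 196 and 394 counts after NEDD8i and 461 and 386 in DMSO (log2 fold change -0.92, SE 0.35). S100a9, the partner of S100a8, had 388 and 237 counts after NEDD8i and 3 and 31 in DMSO. Its log2 fold change of 3.71 (SE 1.05) passed in neither tool (adjusted p = 0.206 by edgeR, 0.173 by DESeq2). Its DMSO libraries lay far apart, at 0.429 and 5.61 CPM.

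Several transcripts of cytokines and of other pathway genes had few reads, unlike Il33. Tnf had 29 and 36 counts after NEDD8i and 20 and 13 in DMSO. Il1b had 137 and 17 counts after NEDD8i and 12 and 9 in DMSO, so its higher value rests on NEDD8i replicate 1. Il6 had 3 and 3 counts after NEDD8i and 3 and 0 in DMSO, and Lcn2 had 3 and 1 after NEDD8i against 2 and 0 in DMSO. Il17a, Il17c, Csf2, Nos2, Ifnb1 and Cxcl5 were at 0 in every library, where the floor of 3 counts is at most 0.543 CPM.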
